A study of Mus musculus with 9 samples.

Results

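Wnt proteins are secreted lipid-modified signals that bind Frizzled receptors, and with the co-receptors Lrp5 and Lrp6 they stabilise β-catenin, which then works with Lef1 and the Tcf proteins in the nucleus. In bone this route favours the differentiation of osteoblasts, and it is restrained outside the cell by the Sfrp, Dkk, Wif1, Notum and Sost proteins, the last of which (sclerostin) is made mainly by osteocytes. Some ligands, such as Wnt5a and Wnt11, act largely without β-catenin.

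The genes examined here are 45 of the 22054 genes in the expression table: 19 Wnt ligands, 12 receptors (Fzd1 to Fzd10, Lrp5 and Lrp6), 4 secreted Frizzled-related proteins (Sfrp1, Sfrp2, Sfrp4 and Sfrp5), 7 other antagonists (Dkk1 to Dkk4, Sost, Wif1 and Notum) and 3 β-catenin targets or effectors (Axin2, Lef1 and Tcf7). They were matched by symbol, with earlier results of these data known. The study asked what the STING pathway, which senses DNA in the cytoplasm, does in the early callus, the repair tissue that bridges a fracture. Male C57BL/6J mice, given as 7 weeks old in the labels, had the left femur cut at midshaft and fixed with a needle in the marrow cavity. From the next day they received daily intraperitoneal injections of 200 μl for 1 week, and callus RNA was sequenced on day 7. The inhibitor group received 750 nmol of H-151, which blocks STING, the activator group 30 mg/kg of SR-717, which activates it, and the control group PBS buffer, with 3 libraries per group. All 3 groups carried the same fracture, so no library stands for unbroken bone, and the drugs reached the whole animal and not a chosen cell type. The labels call the replicates biosamples without tying them to single animals, so each p-value measures the spread between these samples, which may be technical.

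Depth was similar between libraries, from 16987398 to 23272480 counts, and the 45 genes took between 0.0963% and 0.126% of them. The callus carried RNA of several tissues, with bone and cartilage markers detected together with those of marrow, blood and muscle. Hair follicle keratins were low and uneven. Krt71 stood at 8.83 TPM in SR-717 replicate 3, 2.36 in SR-717 replicate 1 and 2.12 in H-151 replicate 1. It was at 0 TPM in the PBS libraries and in H-151 replicates 2 and 3. The skin keratin Krt10 was instead highest in PBS replicate 3, at 20.8 TPM. Their part in the Wnt levels was not tested. Marker content differed strongly between libraries of 1 group. SR-717 replicate 1 stood apart, at 100.6 on the first principal component (46.6% of the variance) with PBS replicate 1 at 38.8 and the other libraries between -28.8 and -4.03. It had the lowest level of 6 of 6 chondrocyte and 5 of 6 osteoblast markers, and the highest of 5 of 5 neutrophil markers. It was also lowest for 4 of 6 osteoclast markers, and highest for 4 of 4 macrophage and 5 of 5 T cell markers. The cartilage collagen Col2a1 stood at 17.1 TPM there and between 336.1 and 4317 TPM in the other 8 libraries. In each comparison with SR-717, the counts of members past both thresholds and below 0 are therefore given with and without this library. The same holds for most fold changes described there. Counts of groups without overlap are given with it only. In bulk RNA, fewer cells of a type and less RNA per cell cannot be told apart.

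**Figure D1:**
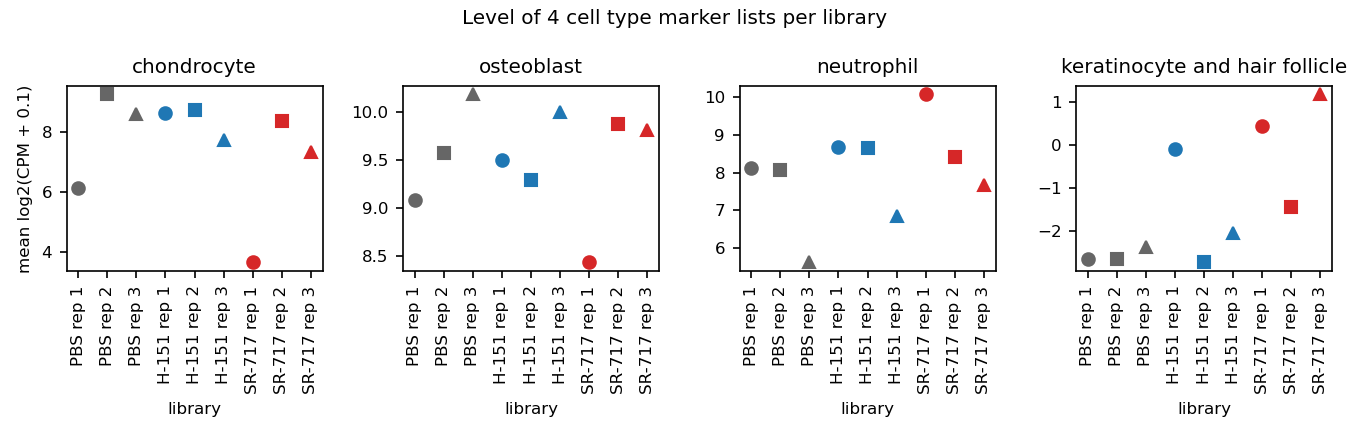
Mean log2(CPM + 0.1) of the chondrocyte, osteoblast, neutrophil, and keratinocyte and hair follicle marker lists in each of the 9 libraries, with 1 point per library coloured by group. SR-717 replicate 1 lies lowest on the first 2 lists (3.65 and 8.43) and highest on the neutrophil list (10.1).

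The sequences that lie just upstream of these genes were examined for the letters that Tcf and Lef proteins prefer, since several Wnt genes are themselves targets of the pathway. RefSeq promoters (GRCm38.p6, 250 bases before to 50 bases after a listed start) were matched for 30 of the 45 genes, 37 promoters in all. The 7-letter motif CTTTGAT, searched on both strands, was present in 2 of these 37, and in 3.73% of all 32851 promoters. The variant CTTTGAA, which differs from it in the last letter so that a site matches only 1 of them, was present in 1 of the 37 and in 5.13% of all promoters. The 3 promoters that hold a match belonged to Wnt5b (chr6:119449337-119449636, minus strand, 1 of its 3 listed starts), Wnt11 (chr7:98834862-98835161, plus strand) and Dkk1 (chr19:30549447-30549746, minus strand). They are shown 5′ to 3′ along the gene's strand because they are all of the matching promoters among these genes, with the match in capitals.
Wnt5b: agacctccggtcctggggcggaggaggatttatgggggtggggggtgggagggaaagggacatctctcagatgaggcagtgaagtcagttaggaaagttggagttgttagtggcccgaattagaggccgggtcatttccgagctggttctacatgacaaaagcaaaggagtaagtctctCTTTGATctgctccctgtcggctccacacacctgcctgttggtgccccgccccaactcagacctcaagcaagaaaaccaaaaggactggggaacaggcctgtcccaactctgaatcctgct
Wnt11: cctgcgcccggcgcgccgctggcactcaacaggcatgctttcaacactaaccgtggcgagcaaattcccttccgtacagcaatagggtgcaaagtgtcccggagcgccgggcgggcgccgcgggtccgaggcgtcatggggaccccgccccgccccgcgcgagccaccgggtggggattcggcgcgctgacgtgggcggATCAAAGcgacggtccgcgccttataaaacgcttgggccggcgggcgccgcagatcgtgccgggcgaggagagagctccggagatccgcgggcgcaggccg
Dkk1: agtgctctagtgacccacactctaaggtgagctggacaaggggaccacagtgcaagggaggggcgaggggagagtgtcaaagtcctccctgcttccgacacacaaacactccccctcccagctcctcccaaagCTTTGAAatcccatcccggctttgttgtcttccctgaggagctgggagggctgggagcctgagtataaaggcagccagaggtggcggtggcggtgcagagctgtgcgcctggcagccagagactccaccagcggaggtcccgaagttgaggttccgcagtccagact
The match begins 71 bases before the listed start of Wnt5b, 51 before that of Wnt11 and 117 before that of Dkk1. For Wnt11, CTTTGAT lies on the other strand, and the printed letters are its reverse complement ATCAAAG. Such a match is a description of letters and was not tied to any measurement of binding.

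To establish which Wnt genes the callus expressed, levels were compared between genes as TPM, which is scaled for gene length. The 5 most abundant members belonged to the Sfrp genes and the other antagonists. Mean TPM over the 9 libraries was 74.6 for Sfrp4, 73.7 for Sfrp2, 69.9 for Dkk3 and 67.2 for Wif1, followed by 44.7 for Sfrp1. Sfrp proteins bind Wnts directly, as does Wif1, whereas Dkk3 is an atypical Dkk with no settled effect on the co-receptors. These 5 genes cannot be ranked firmly, since Sfrp4 ran from 47.9 to 110.1 TPM, Dkk3 from 44.5 to 99.8 TPM and Wif1 from 16.0 to 113.8 TPM between libraries. Summed by class, mean TPM was 196.0 for the 4 Sfrp genes, 171.7 for the 12 receptors, 156.5 for the 7 other antagonists, 76.6 for the 19 ligands and 34.6 for the 3 targets.

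Among the receptors the co-receptor Lrp5 led with a mean of 35.4 TPM, ahead of Fzd1 with 30.0 TPM and Fzd2 with 20.5 TPM. Fzd9, known from osteoblasts, had 16.1 TPM, Fzd7 15.1 TPM, Lrp6 14.6 TPM and Fzd4 13.9 TPM. Fzd3 and Fzd10 were the lowest, with 0.694 and 0.538 TPM.

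Wnt5b was the most abundant ligand with a mean of 26.5 TPM, and its relative Wnt5a followed with 12.7 TPM. In SR-717 replicate 1 the order was the opposite, with 11.4 TPM for Wnt5b and 21.3 TPM for Wnt5a. Both are known from the growth plate and the perichondrium. Wnt11 had 8.86 TPM, Wnt10b, a ligand that promotes bone formation, 6.32 TPM, Wnt9a 6.10 TPM, Wnt16 5.56 TPM and Wnt4 4.62 TPM. Of the targets, Tcf7 stood at 29.7 TPM, while Axin2, the feedback inhibitor often used as a readout of β-catenin activity, stood at 2.92 TPM and Lef1 at 2.06 TPM.

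Of the 45 genes, 36 passed the filter on low counts over all 9 libraries. Dkk4 had 0 of 175440363 counts, which allows up to 0.0171 CPM (3 counts, counting error only). Wnt3, Wnt3a, Wnt7a, Wnt8a and Wnt8b had between 1 and 3 counts over all 9 libraries together, and Wnt1 had 11. Wnt9b and Wnt10a reached 18 and 11 counts at most in a library. Some of these barely detected genes sit beside an expressed one. On GRCm38, Wnt3a lies 16175 bases from Wnt9a on chromosome 11, and Wnt1 11706 bases from Wnt10b on chromosome 15, with no protein-coding gene between the members of either pair. The neighbours Wnt9b and Wnt3, 24328 bases apart on chromosome 11, were both near the floor. The same held for Wnt6 and Wnt10a, 6193 bases apart on chromosome 1, where Wnt6 had between 4 and 17 counts per library.

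**Figure D2:**
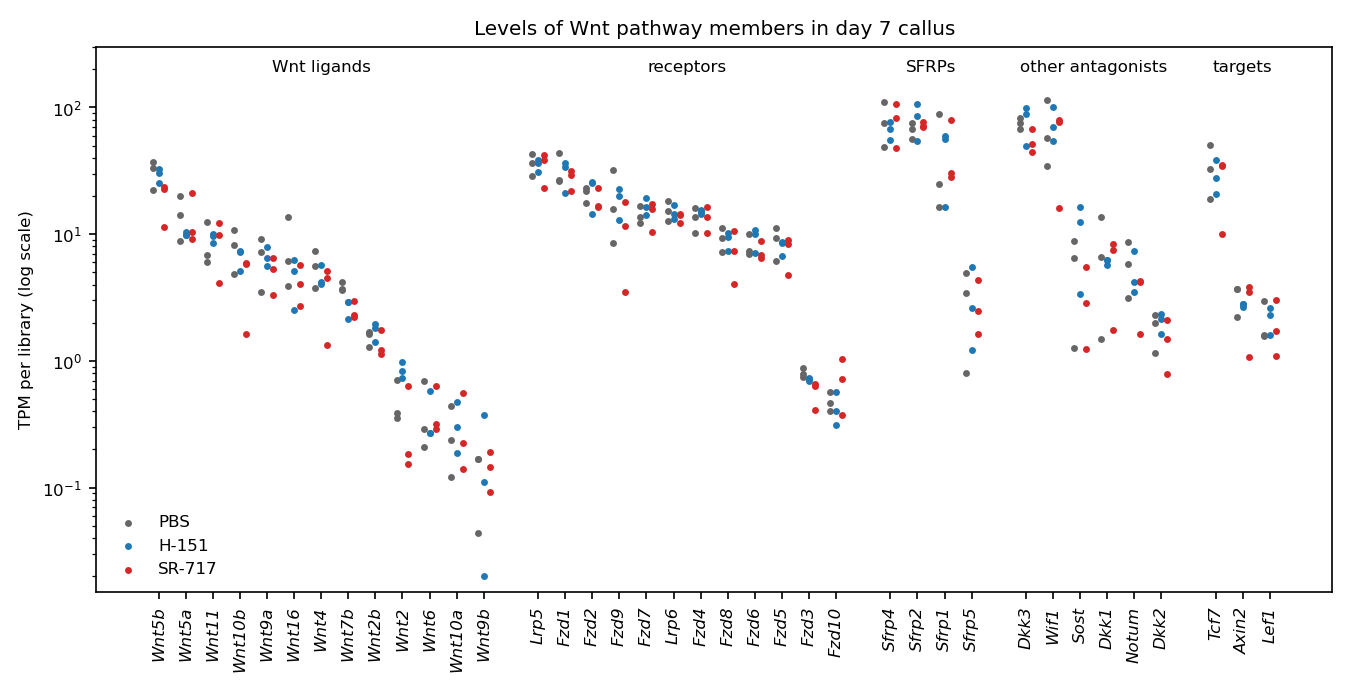
Deposited TPM on a log axis for the members with a mean above 0.1 TPM, with 1 point per library coloured by group. Sfrp4, Sfrp2, Dkk3 and Wif1 lie at the top with means of 67.2 to 74.6 TPM, and single genes spread widely between libraries of 1 group.

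Levels are given from here on as TMM-scaled CPM, the count relative to library size, which compares libraries and not genes. Over the 36 genes, the highest PBS library exceeded the lowest by a median of 1.73-fold, against 1.51-fold over the 14284 genes past the filter with a count in PBS. Dkk1, which blocks Lrp5 and Lrp6, was the widest of the 36 in PBS, with 1.88, 8.12 and 18.5 CPM in PBS replicates 1 to 3, 7.41, 7.30 and 9.12 CPM with H-151, and 2.53, 11.5 and 9.81 CPM with SR-717. The low values were those of the first PBS and the first SR-717 library, and the groups overlapped.

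Sfrp1 went the other way. It stood at 205, 54.9 and 40.1 CPM with PBS, 127, 131 and 42.9 CPM with H-151, and 211, 69.5 and 71.5 CPM with SR-717. Its highest values lay in the libraries where Dkk1 was lowest. Lrp6, by contrast, kept within 1.31-fold over all 9 libraries, from 65.0 to 85.3 CPM.

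SR-717 replicate 1 had the lowest CPM of the 9 libraries for 18 of the 36 genes, against 25.6% of the 14294 genes that passed the filter. It had the highest for 3, Wnt5a, Sfrp1 and Sfrp4, against 26.7% of all genes. Wif1, for example, stood at 22.0 CPM there and between 41.8 and 147 CPM elsewhere, Tcf7 at 14.0 CPM and between 23.3 and 67.6 CPM, and Axin2 at 2.74 CPM and between 4.34 and 8.23 CPM. In the same library the chondrocyte list summed to 112.7 TPM, against 736.3 to 7752 TPM elsewhere, the osteoblast list to 7014 TPM against 11267 to 17068 TPM, and the neutrophil list to 28142 TPM against 1148 to 8685 TPM. No marker of these 3 lists was at 0 TPM in any library. Their part in the result was not tested.

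**Figure D3:**
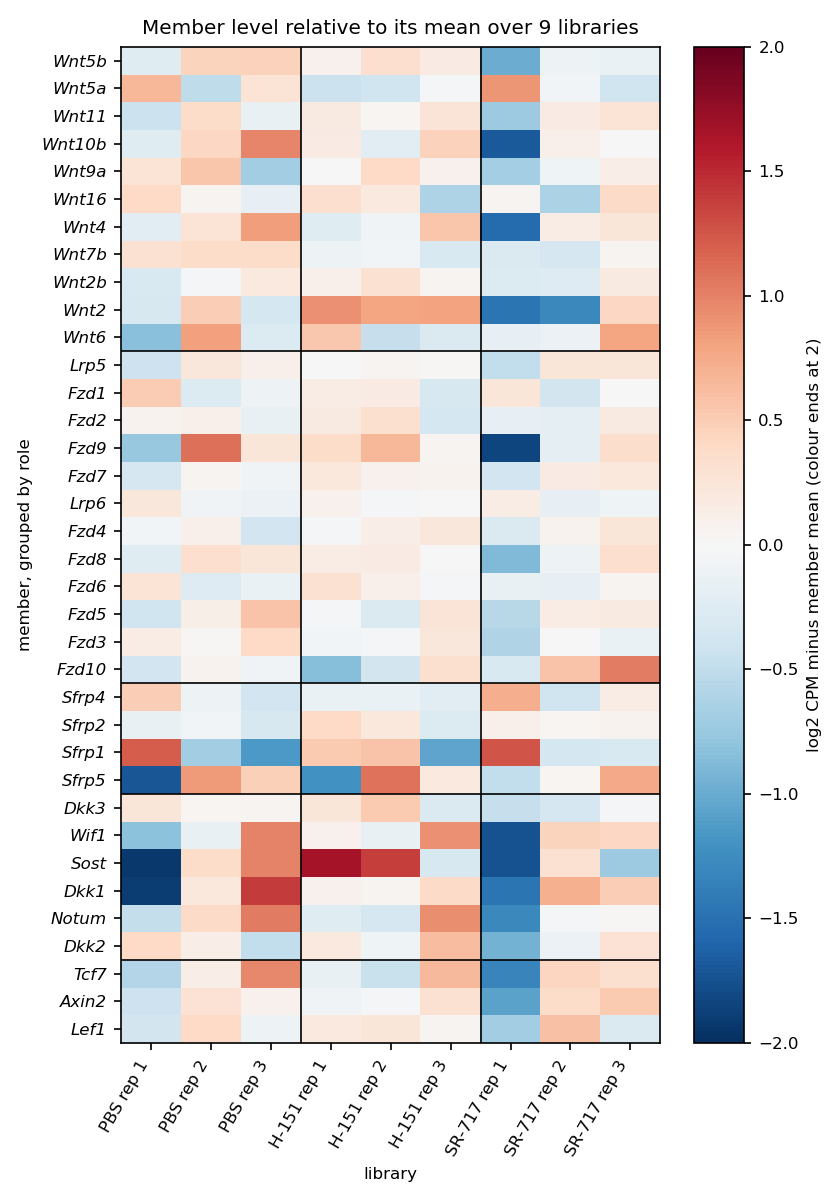
Log2 CPM of the 36 genes that passed the filter, each relative to its mean over the 9 libraries, with genes in rows grouped by role and libraries in columns. SR-717 replicate 1 holds the lowest value for 18 of the 36 genes and the highest for Wnt5a, Sfrp1 and Sfrp4.

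To compare STING activation with STING inhibition, SR-717 was set against H-151. Wnt2, a β-catenin-activating ligand, was lower with SR-717, and it was the only 1 of 35 tested members past an unadjusted p of 0.05 and 1.5-fold. It stood at 0.207, 0.235 and 0.759 CPM with SR-717 and at 1.08, 0.986 and 1.00 CPM with H-151. The groups did not overlap, but these are 4, 5 and 13 counts against 22, 20 and 18. The log2 fold change was -1.38 (SE 0.54, 95% interval -2.69 to -0.07, n = 3 per group), and the edgeR Benjamini-Hochberg adjusted p = 0.996 was also the smallest of any member or gene in this comparison. Wnt2 (chromosome 6, 17988940 to 18030585) passed the filter in the comparisons that include H-151, the group where it was highest, and not between SR-717 and PBS. It lost the call when any single library other than SR-717 replicate 3 was left out. Without SR-717 replicate 1 its log2 fold change was -1.08, and 0 of 36 members were called, against 150 of 14270 genes. Over all genes 0.756% passed the same thresholds (107 of 14151) and 0.389% did so with a lower level with SR-717, and no gene reached an adjusted p of 0.05 with edgeR (146 had an unadjusted p under 0.05), against 1 gene with DESeq2.

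Sost had the largest fold change of the tested members. It stood at 16.5, 13.6 and 4.17 CPM with H-151, 1.55, 6.43 and 3.15 CPM with SR-717 and 1.37, 6.68 and 10.3 CPM with PBS. H-151 replicates 1 and 2 were the highest of the 9 libraries, yet replicate 3 lay within the range of the other groups. The log2 fold change of SR-717 against H-151 was -1.63 (SE 0.68, 95% interval -3.27 to 0.01), just short of the threshold with edgeR, while DESeq2 called Sost as well as Wnt2. Without SR-717 replicate 1 it was -1.25. Sost values were set beside the osteocyte markers, whose summed TPM was 220.5, 183.6 and 304.8 with H-151, 111.1, 323.1 and 209.9 with SR-717 and 89.2, 172.9 and 663.1 with PBS, with Fgf23 at 0 in 5 of the libraries. Dmp1 made up 577.4 of the 663.1 TPM in PBS replicate 3. Mepe followed another order, highest in H-151 replicates 1 and 2 (40.5 and 33.9 TPM) and lowest in PBS replicate 1 and SR-717 replicate 1 (7.12 and 7.63 TPM), the libraries where Sost was also highest and lowest. Phex and Dmp1 were instead highest in PBS replicate 3, at 59.5 and 577.4 TPM. In H-151 replicates 1 and 2, Phex stood at 18.0 and 16.3 TPM and Dmp1 at 161.8 and 133.5 TPM. Both were lowest in PBS replicate 1 and SR-717 replicate 1, as Mepe was. The part of the osteocyte markers in the Sost values was not tested.

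Wnt5b, the leading ligand, was the other member whose groups did not overlap, with 16.1, 29.9 and 29.1 CPM with SR-717 and 34.1, 40.5 and 35.7 CPM with H-151. The log2 fold change was -0.56 (SE 0.26, 95% interval -1.18 to 0.05), which missed the threshold. Without SR-717 replicate 1 it was -0.33, past an unadjusted p of 0.05 but under 1.5-fold. Groups without overlap were 2 of 35 members (5.71%), both of them lower with SR-717, against 5.18% of all genes in either direction and 2.51% in this one. Wnt2 is among these members, and it passed the filter only in the comparisons that include H-151. Dkk3 stood at 89.6, 98.4 and 121 CPM with SR-717 against 146, 177 and 101 CPM with H-151, with a log2 fold change of -0.47 (SE 0.24, 95% interval -1.04 to 0.11) and overlapping groups, and -0.37 without SR-717 replicate 1.

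In direction, 30 of the 35 tested members had a log2 fold change below 0 (85.7%), against 46.6% of all genes, with a median of -0.15 against 0.02. Without SR-717 replicate 1 this was 18 of 36, against 51.3% of all genes, with a median of -0.04. The excess of lower members was therefore not present in the remaining libraries.

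**Figure D4:**
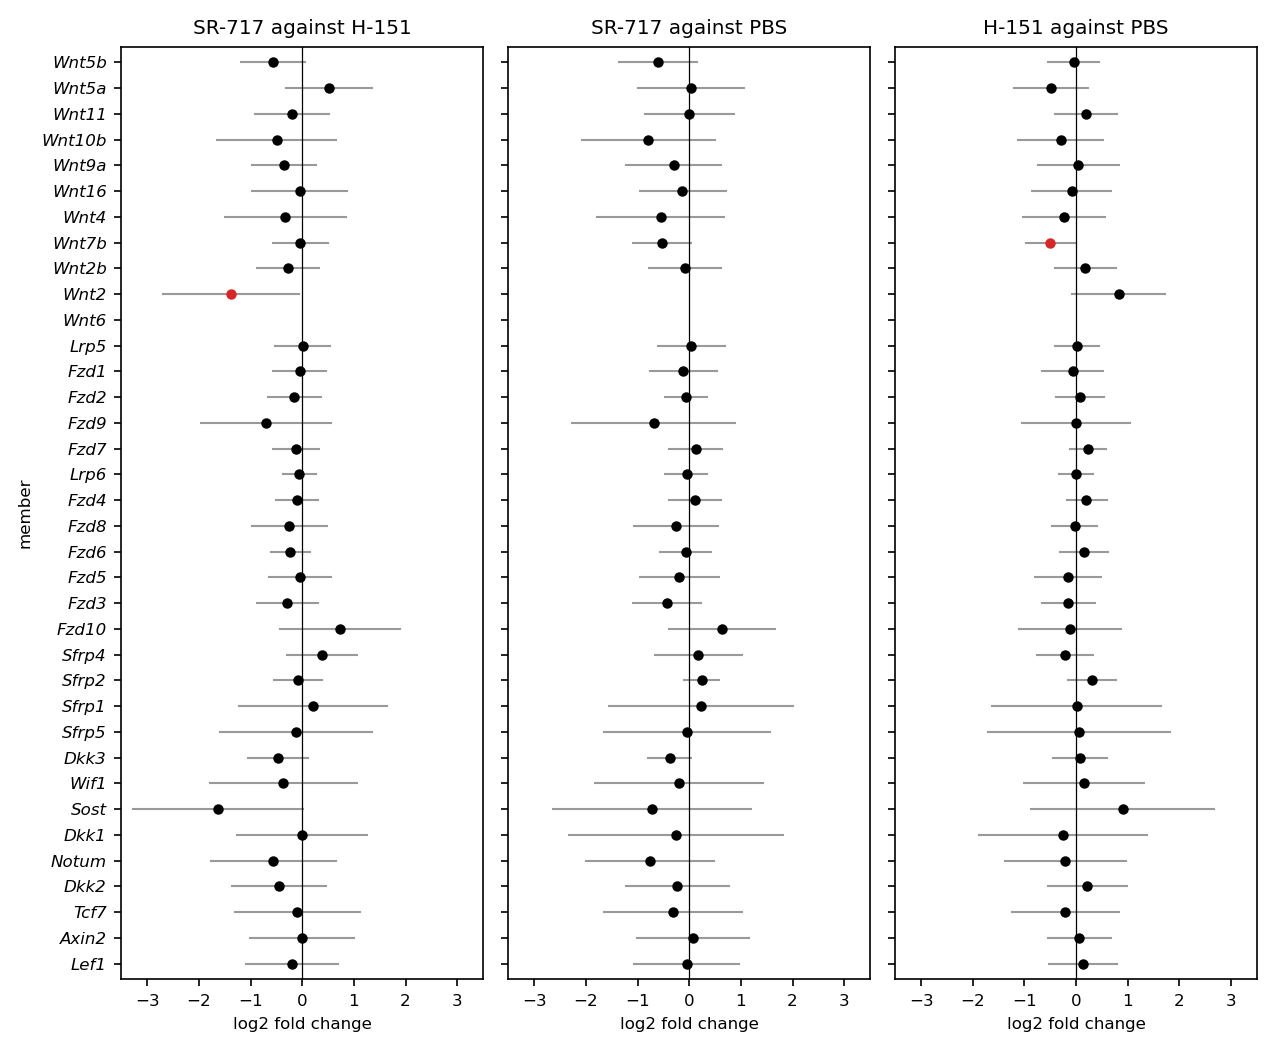
Log2 fold change of each tested member in the 3 comparisons, with lines for the 95% interval and red for an unadjusted p under 0.05. Wnt2 is red for SR-717 against H-151 (-1.38) and Wnt7b for H-151 against PBS (-0.50), and Wnt6 carries no point since it did not pass the filter in any of these comparisons.

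Compared to the control group, no tested member passed the thresholds with SR-717. The edgeR count was 0 of 34, also at an unadjusted p under 0.05, and DESeq2 called 0 with 1 at p under 0.05, where 0.519% of all genes passed both thresholds and 0.689% the p alone. Log2 fold changes were below 0 for 24 of 34 members (70.6%) against 47.8% of all genes. Without SR-717 replicate 1 this was 19 of 36 against 53.1%, and again 0 were called, against 106 of 14194 genes. Without PBS replicate 1 it was 25 of 36 against 49.6%. Without the first replicate of both groups, an alternative chosen after seeing the data, it was 20 of 36 against 50.5%. Groups did not overlap for 4 of 34 members (11.8%), against 3.75% of all genes. These were Dkk3, Wnt7b and Fzd3, lower with SR-717 (3 of 34, against 2.26% of all genes in that direction), and Sfrp2, higher.

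Wnt7b, a ligand known from cartilage and bone formation, stood at 3.87, 3.75 and 4.91 CPM with SR-717 and 5.82, 6.13 and 6.13 CPM with PBS. The log2 fold change was -0.53 (SE 0.23, 95% interval -1.08 to 0.03), short of the threshold although every SR-717 library lay below every PBS library, and -0.47 without SR-717 replicate 1. Dkk3 had 147, 127 and 129 CPM with PBS, and its log2 fold change was -0.38 (SE 0.17, 95% interval -0.79 to 0.03), or -0.29 without that library. Sfrp2 had 84.3, 80.6 and 82.6 CPM with SR-717 against 71.0, 75.5 and 62.9 CPM with PBS, a log2 fold change of 0.24 (SE 0.14, 95% interval -0.10 to 0.58) and 0.23 without that library.

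Libraries with the same replicate number deviated together in this comparison. The labels name no batch behind the number, so a pairing was inferred from these data alone. The pairing is uncertain, since same-numbered SR-717 and H-151 libraries gave correlations of only 0.34, 0.06 and 0.08. Calls with the block, and the order within its pairs, are therefore no separate support for a difference. With the number as a block, 3 of 34 members were lower with SR-717 (8.82%), against 3.15% of all genes. They were Wnt5b (log2 fold change -0.63), Wnt10b (-0.88) and Notum (-0.74), and no edgeR adjusted p over all genes was below 0.999. Wnt10b stood at 2.38, 8.17 and 7.65 CPM with SR-717 and 6.40, 10.1 and 14.8 CPM with PBS. Each SR-717 value lay below the PBS value of the same number, although the groups overlapped. Notum, an enzyme that removes the lipid from Wnts, stood at 2.01, 4.88 and 5.02 CPM against 3.54, 6.43 and 10.2 CPM, with the same order in all 3 pairs. Without the block their log2 fold changes were -0.79 (SE 0.53) and -0.76 (SE 0.51), and that of Wnt5b was -0.61 (SE 0.31, 95% interval -1.36 to 0.15). Leaving out SR-717 replicate 1, also without the block, gave -0.39 for Wnt10b, -0.43 for Notum and -0.36 for Wnt5b, none past the threshold. Without the first replicate of both groups the values were -0.64, -0.72 and -0.55, and of these only Wnt5b had an unadjusted p under 0.05.

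Between H-151 and PBS, 0 of 35 members passed both thresholds with edgeR and 0 with DESeq2, against 0.426% of all genes with edgeR. Wnt7b alone had an unadjusted p under 0.05 (1 of 35, against 0.646% of all genes), and DESeq2 also gave 1. It stood at 4.41, 4.54 and 3.84 CPM with H-151, all below the PBS values given above, with a log2 fold change of -0.50 (SE 0.20, 95% interval -0.97 to -0.03, edgeR adjusted p = 1.00). Same-numbered libraries deviated together here too, and with the replicate block 0 of 35 members passed both thresholds, against 1.86% of all genes, and the p of Wnt7b exceeded 0.05. It also did so when any single library was left out. The 2 comparisons share the PBS libraries, and SR-717 and H-151 did not differ for Wnt7b beyond their spread (log2 fold change -0.04, 95% interval -0.57 to 0.49).

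Wnt2 had a log2 fold change of 0.82 with H-151 (SE 0.38, 95% interval -0.08 to 1.71), its PBS libraries being at 0.457, 0.803 and 0.450 CPM. Groups without overlap were 3 of 35 (8.57%, against 3.87% of all genes): Wnt2 and Fzd7, higher with H-151, and Wnt7b, lower. The PBS values of Wnt2 are only 8, 19 and 8 counts. Wnt2 passed the filter only in the comparisons that include H-151, where it was highest, so its place in this count is no support for a difference. Fzd7 differed by only 0.23 on the log2 scale (SE 0.14, 95% interval -0.11 to 0.58). Log2 fold changes below 0 made up 16 of 35 (45.7%), against 55.8% of all genes. Without PBS replicate 1 this was 19 of 36, against 51.2%.

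**Figure D5:**
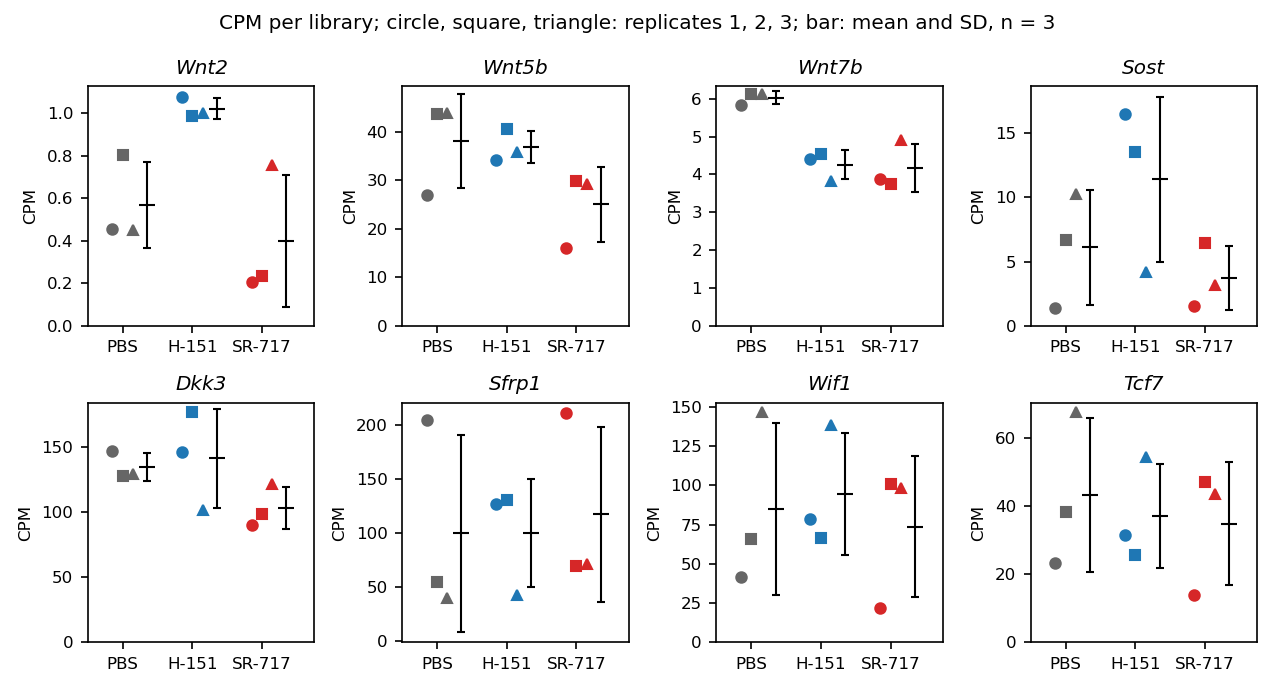
CPM per library of selected members in the 3 groups, with circles, squares and triangles for replicates 1, 2 and 3 and bars for the mean and SD (n = 3). Wnt2 is near 1 CPM in all 3 H-151 libraries, Wnt7b is highest in the 3 PBS libraries, and Sost is highest in H-151 replicates 1 and 2.

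None of the 3 targets passed the threshold in any comparison. Over all genes 0.756% passed for SR-717 against H-151, 0.519% for SR-717 against PBS and 0.426% for H-151 against PBS. The lack of calls among so few genes is therefore no evidence that the targets were unchanged. Axin2 averaged 5.83 ± 1.36 CPM with PBS, 6.09 ± 0.889 with H-151 and 6.13 ± 2.97 with SR-717 (SD, n = 3). For SR-717 against H-151 its 95% interval ran from -1.01 to 1.01 on the log2 scale, and without SR-717 replicate 1 the value was 0.35 (SE 0.21, against 0.42 with it). Lef1 averaged 3.04 ± 0.841, 3.37 ± 0.226 and 2.94 ± 1.39 CPM in the same order, with an interval from -1.09 to 0.69 and a value of 0.05 without that library, against -0.20 with it. Tcf7 averaged 43.1 ± 22.5, 37.2 ± 15.2 and 34.8 ± 18.1 CPM, with an interval from -1.31 to 1.11, and its value turned from -0.10 (SE 0.50) to 0.28 (SE 0.31) without that library. The co-receptors had intervals from -0.52 to 0.53 for Lrp5 and from -0.37 to 0.26 for Lrp6, and values of 0.21 and -0.15 without it, against 0.01 and -0.06 with it.

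In the comparisons with SR-717, Fzd10 was the named member with the largest difference upward. It stood at 0.723, 1.31 and 1.81 CPM with SR-717 against 0.490, 0.690 and 1.11 CPM with H-151. The groups overlapped, and the log2 fold change was 0.74 (SE 0.48, 95% interval -0.42 to 1.89), or 1.02 without SR-717 replicate 1. Fzd1 stood between 51.8 and 95.4 CPM over all libraries and Wnt5a between 22.0 and 58.2 CPM, with overlapping groups in each comparison.

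To place these genes in the wider route, 61 further Wnt pathway genes were examined, comprising secretion factors and R-spondins, other receptors, further antagonists, the cytoplasmic machinery, nuclear partners and further targets. For SR-717 against H-151, 54 were tested, 39 had a log2 fold change below 0, against 46.6% of all genes, and 1 passed both thresholds, against 0.756%. For SR-717 against PBS, 41 of 55 were below 0, against 47.8%, and 1 passed, against 0.519%. For H-151 against PBS, 39 of 55 were below 0, against 55.8%, and 0 passed, against 0.426% (edgeR 0 also at an unadjusted p under 0.05). None of the 20 cytoplasmic genes or the 9 nuclear partners passed in any comparison. The median log2 fold change of the 61-gene list was -0.09, -0.15 and -0.08 in the 3 comparisons, against 0.02, 0.01 and -0.02 over all genes. Without SR-717 replicate 1 the first became -0.02, with 29 of 55 below 0, against 51.3% of all genes, and the second -0.05, with 36 of 55 below 0, against 53.1%.

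The 1 gene was Lgr5, a receptor for R-spondins that strengthens Wnt signalling. It stood at 1.65, 1.74 and 2.63 CPM with SR-717, 5.64, 4.83 and 3.11 CPM with H-151 and 4.97, 3.76 and 2.70 CPM with PBS. Every SR-717 library lay below every library of the other groups, though SR-717 replicate 3 and PBS replicate 3 nearly met. The log2 fold change was -1.19 against H-151 (SE 0.34, edgeR adjusted p = 0.996) and -0.93 against PBS (SE 0.36, edgeR adjusted p = 1.00). The former kept its p under 0.05 in every alternative run. The latter did not with the replicate block (log2 fold change -0.92), nor without SR-717 replicate 1 (-0.81), SR-717 replicate 2 (-0.83), PBS replicate 1 (-0.69) or PBS replicate 2 (-0.95). These runs were added for Lgr5 after it had passed, and they reuse the same libraries, so they are no separate support.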

How the data were processed

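Callus RNA libraries were assigned to groups and replicate numbers from the sample labels, whose RNA protocol speaks of cell lines where the study describes callus. Sequencing and the deposited table came from a service company. The table that the authors deposited pairs expected counts, which are not normalized, with TPM values, scaled for gene length and to a fixed sum in each library. The submitters' processing notes name build mm10. The aligner and counter are not given in the sources used here. The libraries were strand-specific, but whether counting used the strand is not stated, so counts of 9 members that overlap a gene on the other strand (Notum, Wnt11, Wnt5a, Wnt7b, Fzd5, Fzd6, Sfrp2, Axin2 and Lef1) are uncertain.

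Expected counts were rounded (only Wnt4 of the members had a count that was not whole). Groups were compared with edgeR 4.0.16 in R 4.3.3 (filterByExpr defaults with a minimum count of 10 and a total of 15, TMM, glmQLFit and glmQLFTest) on the 6 libraries of each pair without covariates, fitted on the whole table. The study's thresholds, 0.05 for p and 1.5 for the fold change, were applied to the unadjusted p, and Benjamini-Hochberg adjustment ran over all genes tested. Standard errors and intervals were derived from the F statistic. CPM used TMM factors over all 9 libraries. The code was tested on simulated data. The members and all gene lists were chosen with earlier results of these data known. Members were named where they passed both thresholds, had the largest fold changes, were the most abundant of their class, or were Sost, Axin2, Lef1, Tcf7, Lrp5 or Lrp6, and others were chosen after their values were seen. Pairing by replicate number was judged from the correlation of deviations from the group means, which was 0.65, 0.34 and 0.14 for the 3 pairs of SR-717 and PBS, 0.30, 0.49 and 0.50 for H-151 and PBS, and 0.34, 0.06 and 0.08 for SR-717 and H-151. The numbers were taken to pair the libraries where every value exceeded 0.1. The labels name no batch or pairing behind them. Numbers that pair SR-717 with PBS and H-151 with PBS would also pair SR-717 with H-151, which this criterion did not find. The calls with the replicate block therefore rest on an uncertain pairing. The alternatives were DESeq2 1.42.0, other scalings, filters, a single fit of all libraries, the replicate block and leaving out each library. Positions come from GENCODE on GRCm38, matched for 45 of 45 members. A planned identity comparison of member proteins was not run.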

Additional observations from a re-analysis of the deposited data

How the results depend on the processing

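Each comparison rests on 3 libraries per group, and low genes such as Wnt2 rest on few counts. For SR-717 against H-151 the count of members past both thresholds was 1, and it became 2 with DESeq2 (Sost and Wnt2), 2 with the replicate block (Wnt2 and Wnt5b) and 0 with a mean count of at least 50, which removes Wnt2. Leaving out single libraries gave from 0 to 2. It was 0 without H-151 replicate 1, H-151 replicate 2 or SR-717 replicate 1, and 2 without H-151 replicate 3 (Dkk3 and Sost) or SR-717 replicate 2 (Sost lower and Sfrp4 higher). Without a filter on low counts the 1 call was Sost and not Wnt2. Replicate numbers did not pair these libraries by the criterion used.

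For SR-717 against PBS the count was 0, became 3 with the replicate block, and ran from 0 to 1 without single libraries. The 1 was Wnt5b without PBS replicate 1, where 118 of 14346 genes passed. It was 1 (Sfrp1, higher) without the first replicate of both groups, an alternative chosen after seeing the data, where 118 of 14166 genes passed. For H-151 against PBS the count was 0 and ran from 0 to 2, the 2 being Wnt2, higher, and Wnt5a, lower, without PBS replicate 2. The block moved the count over all genes from 73 to 443 for SR-717 against PBS and from 60 to 262 for H-151 against PBS. Without PBS replicate 2 the latter was 698. For SR-717 against H-151 it moved from 107 to 209 with DESeq2, 223 without a filter on low counts, 61 with a mean count of at least 50, 384 without SR-717 replicate 2 and 661 without SR-717 replicate 3. With the replicate block it was 143 of 14151 genes, and without SR-717 replicate 1 it was 150 of 14270. Without H-151 replicates 1, 2 and 3 in turn it was 94 of 14335, 64 of 14291 and 153 of 14373.

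In the list of 61 pathway genes, the 1 gene past the thresholds for SR-717 against PBS became 0 without SR-717 replicate 1 and 0 with the replicate block. The 18 members lowest in SR-717 replicate 1 by CPM became 23 by TPM, while the share of all genes rose from 25.6% to 34.6%. Among single named genes, 585 alternative values kept direction and side of the threshold (a value of 0.00 counting as no direction), 20 moved above p 0.05, 19 moved below it, and 61 changed direction, none of them with a p under 0.05. Of those 61, 55 came from leaving out single libraries. Their log2 fold changes are given as the lowest and highest value over those libraries. For SR-717 against H-151, Wnt7b ran from -0.17 to 0.03, Wif1 from -0.66 to 0.07, Lrp5 from -0.11 to 0.21, Fzd1 from -0.20 to 0.10, Sfrp2 from -0.25 to 0.07, Tcf7 from -0.38 to 0.28, Lef1 from -0.66 to 0.05 and Lrp6 from -0.15 to 0.01. For SR-717 against PBS, Wif1 ran from -0.53 to 0.45, Wnt5a from -0.43 to 0.32, Lrp5 from -0.13 to 0.25, Fzd1 from -0.28 to 0.16, Sfrp4 from -0.16 to 0.47, Tcf7 from -0.60 to 0.18, Axin2 from -0.20 to 0.43, Lef1 from -0.50 to 0.20 and Lrp6 from -0.15 to 0.06. For H-151 against PBS, Fzd10 ran from -0.47 to 0.13, Wnt10b from -0.55 to 0.03, Notum from -0.73 to 0.22, Dkk3 from -0.12 to 0.27, Wif1 from -0.23 to 0.81, Wnt5b from -0.24 to 0.07, Lrp5 from -0.13 to 0.16, Fzd1 from -0.22 to 0.21, Sfrp4 from -0.39 to 0.08, Tcf7 from -0.59 to 0.27, Axin2 from -0.10 to 0.23, Lef1 from -0.01 to 0.40 and Lrp6 from -0.07 to 0.12. The other 6 were Lrp5 at -0.03 with the replicate block for SR-717 against H-151, Axin2 at -0.04 with the replicate block and Wnt5a at -0.12, Fzd1 at 0.02 and Lef1 at 0.06 without the first replicate of both groups for SR-717 against PBS, and Lrp6 at 0.01 with a mean count of at least 50 for H-151 against PBS. The cause of these changes was not tested beyond the construction named.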

Other observations

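Wnt16, a ligand known from cortical bone, differed between its count and its TPM. In PBS replicate 2 it had 88 counts and 13.5 TPM, while in PBS replicate 1 it had 83 counts and 6.15 TPM and in H-151 replicate 1 92 counts and 6.28 TPM. Relative to the other members' ratio of TPM to CPM, Wnt16 ran from 0.971 to 2.73 over the libraries, the highest in PBS replicate 2. The next widest were Axin2, up to 1.32 in PBS replicate 3, and Wnt11, up to 1.26 in SR-717 replicate 3. The mean Wnt16 level was 7.87 ± 5.03 TPM and 3.89 ± 0.782 CPM with PBS (SD, n = 3).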
